A study of Mus musculus with 4 samples.

Results

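Negative feedback on MAP kinase signalling was examined at the transcript level in CD4+ T cells that had recently received a T cell receptor signal. The genes were 10 members of the Dusp, Spry and Spred families, taken by name: Dusp1, Dusp2, Dusp4, Dusp5, Dusp6, Dusp10, Spry1, Spry2, Spred1 and Spred2. All 10 were found among the 47643 Ensembl identifiers of the count table, and 9 of them were among the 9608 genes with enough counts to test. Both groups came from spleens of Tg4 Nr4a3-Tocky Il10-EGFP mice, whose T cells carry a transgenic receptor for a myelin basic protein (MBP) peptide, a Timer protein under the control of Nr4a3 and EGFP that reports Il10. Mice received 4 mg/kg of the peptide [4Y]-MBP under the skin, and 24 h later Timer+ CD4+ T cells were sorted into Il10-EGFP+ and Il10-EGFP- populations. Each population is represented by 2 libraries, from replicate mice. Genotype, peptide, dose, time and the Timer gate were thus common to both groups, and untreated or Timer- T cells are not part of the comparison. The transgenic receptor has a single specificity, and whether the sorted T cells also carried other receptors was not tested. The ages of the mice are not given in the sources used here.

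MAP kinases such as ERK, p38 and JNK are switched on by dual phosphorylation and switched off when those phosphates are removed. The dual-specificity phosphatases encoded by Dusp genes carry out that removal, and several are themselves transcribed in response to the kinases they oppose, which makes them a delayed negative feedback loop. Sprouty (Spry) and Spred proteins act higher up, where they restrain activation of the kinase Raf by the small GTPase Ras. In T cells the receptor activates Ras and ERK, and transcripts of this kind are widely used as a readout of how much of that signal a cell has received.

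Libraries were made from the 3′ end of messenger RNA (QuantSeq FWD), so that counts do not scale with transcript length. Levels are set side by side between genes on that basis, but how fully the 3′ end of each gene was captured was not checked. The total counts per library ran from 644679 to 730330, and at this depth 1 count corresponds to 1.36 to 1.58 CPM (counts scaled to a common library size with TMM factors). Il10 was not counted in the Il10-EGFP- libraries (0 and 0) and reached 29 and 41 counts in Il10-EGFP+ T cells, in the direction of the sort. The 9 T cell markers summed to 3495 and 3276 CPM in Il10-EGFP- against 3966 and 3728 CPM in Il10-EGFP+ libraries, with Trac called higher. The 10 B and plasma cell markers summed to 113 and 162 CPM in Il10-EGFP- and to 458 and 528 CPM in Il10-EGFP+ libraries, with Jchain, Igkc, Ighm and Iglc2 called higher. The 11 myeloid markers summed to 111 and 139 CPM against 385 and 201 CPM, with S100a8 and Lyz2 called higher and Adgre1 and Cd14 at 0 in every library. The part of these markers in the results below was not tested.

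The upstream windows of 3 genes are shown because Dusp2 gave the most abundant transcript of the group, and because Dusp1 and Dusp5 were the members whose windows held a match to the cyclic AMP response element (CRE) or to the CArG box, the sequence bound by serum response factor. They are the 250 bases before the start of each gene in RefSeq on GRCm38, read 5′ to 3′ on the strand of the gene, with the matches in capitals.
Dusp1, chr17:26508473-26508722, minus strand: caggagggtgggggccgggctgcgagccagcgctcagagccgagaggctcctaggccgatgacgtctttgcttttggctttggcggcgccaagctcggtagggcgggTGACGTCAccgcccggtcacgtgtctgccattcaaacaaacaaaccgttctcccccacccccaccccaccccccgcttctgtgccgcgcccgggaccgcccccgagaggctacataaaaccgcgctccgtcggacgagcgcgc
Dusp2, chr2:127335909-127336158, plus strand: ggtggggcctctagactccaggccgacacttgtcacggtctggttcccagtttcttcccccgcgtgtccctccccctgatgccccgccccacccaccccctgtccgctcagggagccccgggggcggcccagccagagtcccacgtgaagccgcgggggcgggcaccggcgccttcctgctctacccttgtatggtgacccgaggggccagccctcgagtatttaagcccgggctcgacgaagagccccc
Dusp5, chr19:53528895-53529144, plus strand: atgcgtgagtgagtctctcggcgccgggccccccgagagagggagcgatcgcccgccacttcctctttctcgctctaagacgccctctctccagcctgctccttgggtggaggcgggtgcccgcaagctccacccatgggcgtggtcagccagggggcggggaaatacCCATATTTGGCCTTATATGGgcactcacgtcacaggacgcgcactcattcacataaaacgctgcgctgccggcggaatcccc

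Upstream windows were at hand for 9 of the 10 members, all except Dusp4. The CRE, spelled TGACGTCA, was found in the Dusp1 window, at 143 bases before the start, and in 1.55% of all 32851 windows of this length. The CArG box was found in the Dusp5 window, in 2 adjoining copies that begin 82 and 72 bases before the start, and in 1.47% of all windows. The letters GGAAAA, the core bound by NFAT, were present upstream of Spred2 and Spry2 and in 20.4% of all windows. No window of a member held the AP-1 letters TGANTCA (6.75% of all windows), the ETS letters CCGGAAG (6.91%), the EGR letters GTGGGCG (7.02%) or the TATA box letters TATAAA (12.4%). Both strands were searched, and none of these matches was set against a change in expression.

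None of the 9 tested members passed an adjusted p of 0.05 between the populations (edgeR quasi-likelihood test with Benjamini-Hochberg adjustment over all genes tested), while 4.09% of all tested genes did. Adjusted p-values of the members ran from 0.2066 to 0.8769. One member, Dusp2, had an unadjusted p under 0.05, against 15.5% of all tested genes. DESeq2's Wald test called none of the members (1.17% of all genes) and gave 5 of them no adjusted p, and limma on the deposited rlog values called none (4.26% of all genes). Log2 fold changes were above 0 for 4 members and below 0 for 5, with a median of -0.36 beside 2.54e-05 over all tested genes. The normalised counts of the 2 groups did not overlap for 3 members: Dusp1 and Dusp6 were higher in both Il10-EGFP+ libraries and Dusp2 was lower, against 22.3% of all genes in each direction. With 2 libraries a group such separation is common, and it is given as a description.

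**Figure D1:**
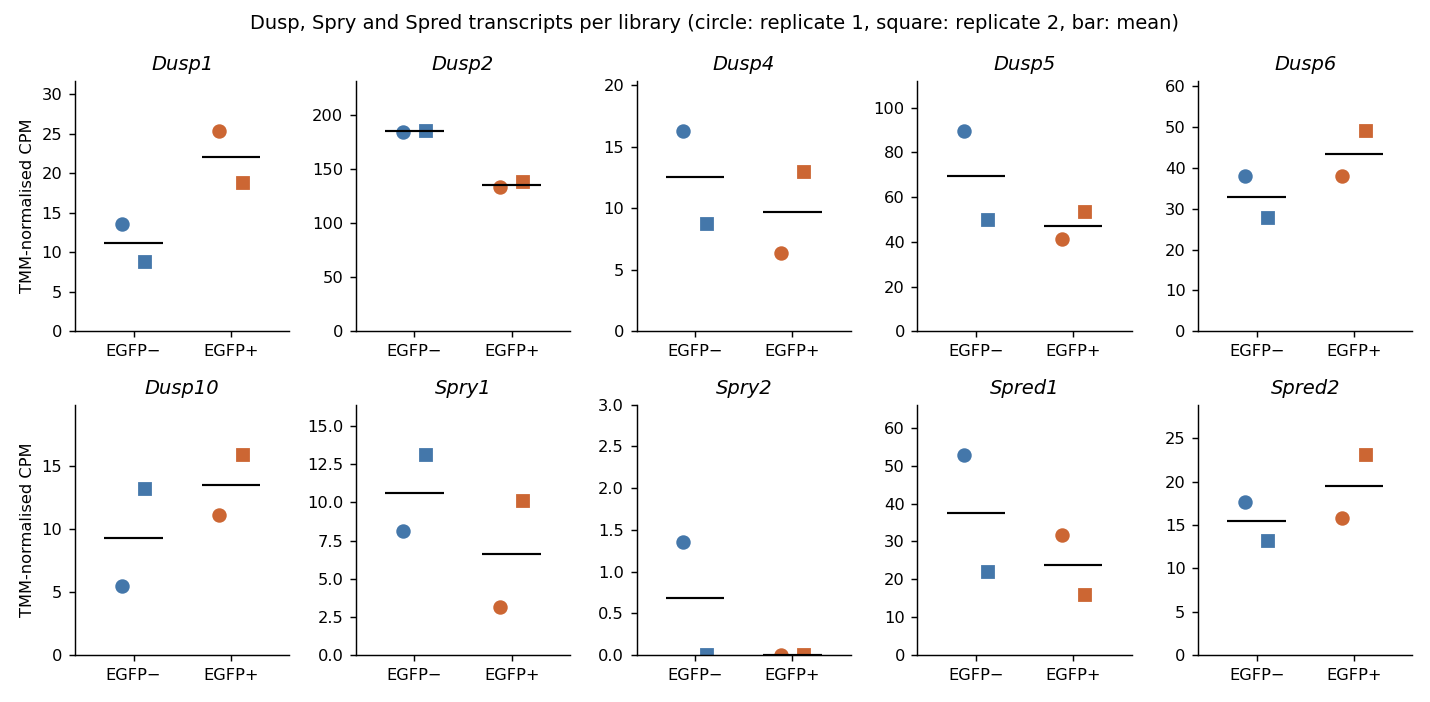
TMM-normalised CPM of the 10 members in each library, with Il10-EGFP- T cells in blue, Il10-EGFP+ T cells in orange, replicate 1 as circles, replicate 2 as squares and group means as bars. The vertical axis of each panel starts at 0 and has its own scale. The Dusp2 libraries sit at 185 and 185 CPM against 133 and 139 CPM, while the symbols of most other genes overlap between groups.

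Levels within the families differed far more than levels between the populations. Dusp2 was the most abundant in every library, at 133 to 185 CPM, and its lowest library lay above the highest library of the next gene, Dusp5 (41.2 to 89.6 CPM). It supplied 43.2% and 54.3% of all member counts among Il10-EGFP- libraries, against 43.5% and 41.0% among Il10-EGFP+ libraries (exact 95% intervals from 34.7% to 60.8% across the 4, for counting error only). By its mean level Dusp2 stood at the 88.6th percentile of tested genes. Below it, the order by mean was Dusp5, Dusp6, Spred1, Spred2, Dusp1, Dusp10, Dusp4, Spry1 and Spry2, and each of these neighbours down to Spry1 overlapped in its range over libraries. The 10 members together summed to 428 and 341 CPM in Il10-EGFP- and to 306 and 338 CPM in Il10-EGFP+ libraries. The 4 Spry and Spred genes summed to 80.1 and 48.1 CPM against 50.7 and 49.1 CPM, a small part of the whole in each library.

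Dusp2, a nuclear phosphatase first known from activated lymphocytes (chromosome 2, 127336159 to 127338376, GRCm38), was counted 136 and 127 times in Il10-EGFP- T cells and 84 and 96 times in Il10-EGFP+ T cells. These correspond to 185 ± 0.494 CPM and 136 ± 3.82 CPM (SD, n = 2 each). Both Il10-EGFP+ libraries thus lay below both Il10-EGFP- libraries. With 2 values each, these SDs measure the spread poorly, and the standard error of the fit follows. The log2 fold change was -0.44 (standard error 0.19, 95% interval -0.82 to -0.07), which is 0.735 times the Il10-EGFP- level with an interval from 0.567 to 0.952. This did not pass the threshold after adjustment over all genes (edgeR adjusted p = 0.2066), and DESeq2 gave an adjusted p of 0.7132. The log2 fold change stayed between -0.48 and -0.42 when each library was left out in turn. Among 453 genes with mean counts within 1.2-fold of that of Dusp2, 49 were called and the smallest called change was 0.63 on the log2 scale. The Dusp2 difference is therefore smaller than any that passed at this level of counts. In sorted bulk samples, fewer cells with a transcript and less of that transcript per cell cannot be told apart.

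Dusp1 is an immediate early gene whose product acts in the nucleus on p38, JNK and ERK. Its counts were 10 and 6 in Il10-EGFP- against 16 and 13 in Il10-EGFP+ libraries, or 11.2 ± 3.41 and 22.1 ± 4.67 CPM (SD, n = 2 each). All 4 values were low, and both Il10-EGFP+ values were the higher ones. The log2 fold change was 0.96 (standard error 0.53), with a 95% interval on the fold from 0.926 to 4.07 and an adjusted p of 0.4046 (edgeR). Its highest library, Il10-EGFP+ replicate 1, was also the library with the highest summed myeloid markers, and a link between them was not tested. Of the genes called higher below, Rasa3, Dok2 and Dgka also had their highest CPM in that library, and Ptpn7 did not. Exons of Dusp1 overlap those of Ergic1 on the other strand, 55899 bases from the Dusp1 3′ end, and whether counting used strand is not stated. At mean counts within 1.2-fold of Dusp1, 11 of 928 genes were called and none changed by less than 1.77 on the log2 scale.

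Dusp5, which dephosphorylates ERK in the nucleus and holds it there, had 66 and 34 counts against 26 and 37, or 89.6 and 49.6 CPM in Il10-EGFP- and 41.2 and 53.4 CPM in Il10-EGFP+ libraries. The groups overlapped, and 1 library, Il10-EGFP- replicate 1, stood above the other 3. The log2 fold change was -0.56 (standard error 0.30, 95% interval -1.16 to 0.04; edgeR adjusted p = 0.3759). Without Il10-EGFP- replicate 1 it was -0.07. Dusp4, a nuclear phosphatase closely related to Dusp1, had 12 and 6 counts against 4 and 9. Its log2 fold change of -0.36 (95% interval -1.66 to 0.94) covers both a fall and a rise of considerable size, and the counts were too low to judge. Summed over the nuclear, inducible Dusp1, Dusp2, Dusp4 and Dusp5, the libraries held 304 and 252 CPM in Il10-EGFP- and 206 and 224 CPM in Il10-EGFP+ T cells, a sum that Dusp2 and Dusp5 dominate.

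Dusp6 encodes the cytoplasmic phosphatase specific for ERK and is a common transcriptional readout of ERK activity. Its counts were 28 and 19 in Il10-EGFP- against 24 and 34 in Il10-EGFP+ libraries, or 32.9 ± 7.27 and 43.5 ± 7.79 CPM (SD, n = 2 each). The groups did not overlap only by the narrowest margin, with replicate 1 at 38.01 CPM in Il10-EGFP- and 38.03 CPM in Il10-EGFP+ T cells. The log2 fold change was 0.40 (standard error 0.35) with a fold interval from 0.816 to 2.14 and an adjusted p of 0.6519 (edgeR). Dusp10, whose product prefers p38 and JNK, had 4 and 9 counts against 7 and 11. Its log2 fold change was 0.55 (95% interval -0.75 to 1.85), and it was too low to judge.

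Among the genes that act on Ras and Raf, Spred1, which brings the Ras-inactivating protein neurofibromin to the membrane, was at 39 and 15 counts in Il10-EGFP- against 20 and 11 in Il10-EGFP+ libraries. Il10-EGFP- replicate 1 again held the highest value, 52.9 CPM, and the other 3 libraries ran from 15.9 to 31.7 CPM. The log2 fold change was -0.68 (standard error 0.42, edgeR adjusted p = 0.4673), and it was 0.10 without that library, so that its direction rested on 1 library. Spred2, its close relative, had 13 and 9 counts against 10 and 16, and the difference on the log2 scale was 0.34 (standard error 0.51, edgeR adjusted p = 0.8433). Spry1, an inducible inhibitor of Ras and ERK signalling, had 6 and 9 counts against 2 and 7. With a log2 fold change of -0.63 and a 95% interval from -2.16 to 0.89, it was too low to judge. Spry2 had 1 count in Il10-EGFP- replicate 1 and 0 in the other 3 libraries, where a count of 0 allows up to 4.33 to 4.75 CPM, and no fold was computed.

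**Figure D2:**
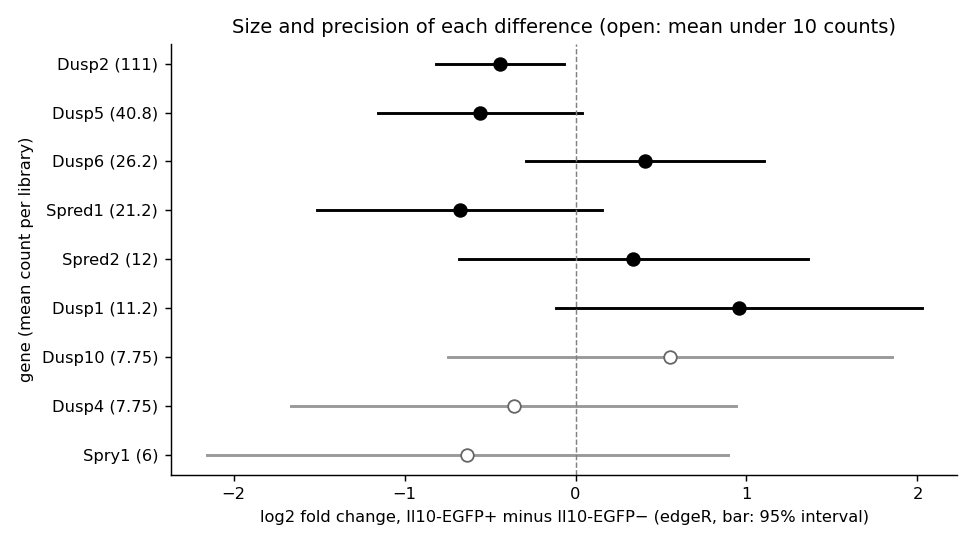
Log2 fold change of the 9 tested members, Il10-EGFP+ minus Il10-EGFP-, with 95% intervals from the edgeR fit, ordered by mean level, and with the mean count per library in brackets. Open symbols mark Dusp4, Dusp10 and Spry1, with means under 10 counts. Among the 9 intervals, that of Dusp2 (-0.82 to -0.07) does not reach 0, and the intervals widen as counts fall.

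The width of these intervals sets what the data can show for each gene. A mean of at least 10 counts per library was reached by 6 of the members. For these 6, the 95% intervals on the fold allow at most a fall to 0.351 times the Il10-EGFP- level (Spred1) and at most a rise to 4.07 times (Dusp1). Intervals of the other 3 tested members run from 0.224 times (Spry1) to 3.61 times (Dusp10). The misses of the threshold therefore do not show that feedback transcripts were equal in the populations. On the deposited rlog scale, a log2 scale on which low counts are pulled together, the differences of the members lay between -0.23 (Dusp2) and 0.10 (Dusp1).

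**Figure D3:**
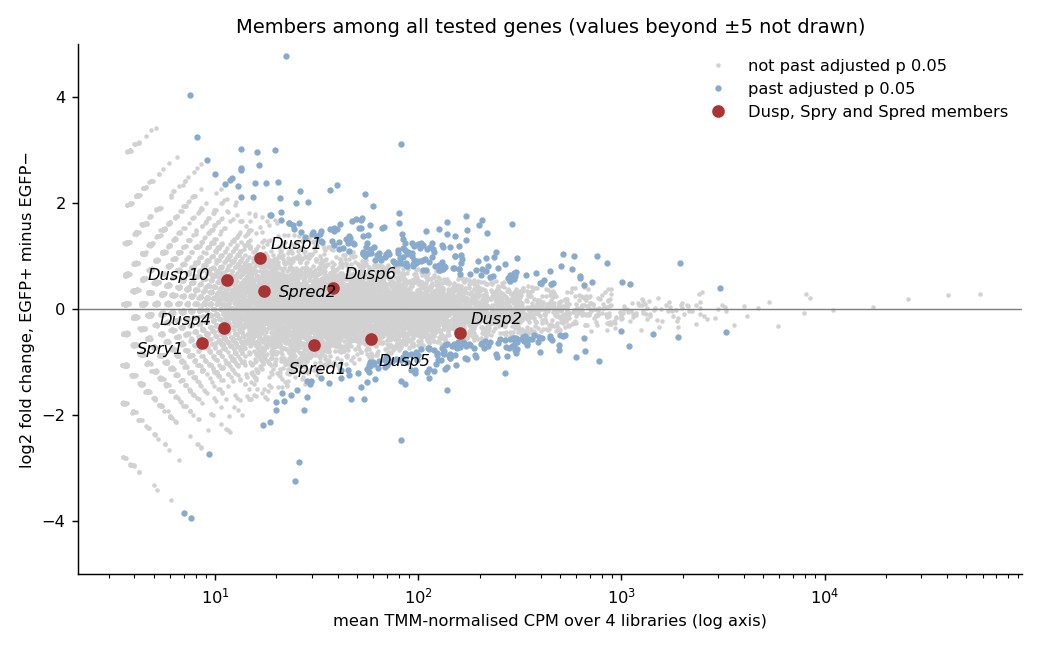
Log2 fold change, Il10-EGFP+ minus Il10-EGFP-, against mean CPM over the 4 libraries on a log axis, for all tested genes, with called genes in blue and the 9 tested members in red. Dusp2 lies just above the band of genes called lower, and the other members lie within the grey cloud.

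The remaining MAP kinase genes were taken from 7 lists of 111 genes, of which 110 were found and 84 had enough counts to test. Of the 84, 5 passed the threshold, 4 higher and 1 lower in Il10-EGFP+ T cells, or 5.95% beside 4.09% of all genes (2.35% higher and 1.74% lower). Of 20 other dual-specificity phosphatases, 8 were tested and none was called, with a median log2 fold change of 0.14. They include Dusp7, a close relative of Dusp6, at 51 and 53 counts in Il10-EGFP- against 32 and 34 in Il10-EGFP+ libraries. Its groups did not overlap, but the change of -0.55 on the log2 scale (standard error 0.28) missed the threshold (edgeR adjusted p = 0.3341). Dusp12 had 60 and 76 counts against 33 and 48, and a log2 fold change of -0.65 (standard error 0.26, edgeR adjusted p = 0.1595). Dusp11, an RNA phosphatase despite its name and the most abundant of this list, had a log2 fold change of 0.19 (edgeR adjusted p = 0.7744). Of the other Spry and Spred genes, Spry4 and Spred3 did not reach 10 counts and Spry3 was not matched to an identifier.

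Of the 17 genes of the Ras-ERK cascade all were tested and none was called, with a median of 0.09. None of 16 tested genes of the p38 and JNK cascades (median 0.00) and none of 7 tested kinases activated by MAP kinases (median 0.19) was called. Mknk2, a kinase that phosphorylates the translation factor eIF4E, had 111 and 99.2 CPM against 136 and 131 CPM without passing the threshold (edgeR adjusted p = 0.4586).

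The 4 genes called higher were all among the 17 Ras GTPase-activating proteins and other ERK brakes, a list whose median was 0.11 and in which no gene was called lower, beside 2.35% of all genes called higher. Genes with mean counts within 1.2-fold were called, in either direction, in 7.24% of cases for Rasa3, 5.06% for Dok2, 11.7% for Ptpn7 and 12.5% for Dgka. This list, like the others, was chosen with earlier results of these data known, and nothing particular to it is read from the count. Rasa3, a Ras GTPase-activating protein, rose from 52 and 34 counts among Il10-EGFP- libraries to 81 and 86 in Il10-EGFP+ libraries, a log2 fold change of 1.06 (standard error 0.24, edgeR adjusted p = 0.003219). Dok2, an adaptor that recruits such proteins below the T cell receptor, rose from 28 and 26 to 52 and 53 counts, also by 1.06 (standard error 0.29, edgeR adjusted p = 0.02241). The groups of both genes were well apart. Ptpn7, a tyrosine phosphatase of haematopoietic cells that binds and inactivates ERK and p38, rose from 89 and 69 to 110 and 143 counts, by 0.78 on the log2 scale (edgeR adjusted p = 0.0101). Dgka, a kinase that removes the Ras activator diacylglycerol and is linked to T cell anergy, rose from 164 and 151 to 224 and 233 counts, by 0.64 (edgeR adjusted p = 0.008992). The ends of Ptpn7 and Dgka share stretches of 50 bases with other genes (78 of 1744 and 65 of 904 such stretches), where the assignment of reads is uncertain. Exons of Dgka also overlap those of Pmel on the other strand, 0 bases from the Dgka 3′ end. Pmel had 1 count, in Il10-EGFP+ replicate 1, and 0 in every other library.

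Of 19 tested ERK-responsive genes, 1 was called. Myc, a growth regulator, fell from 27 and 19 counts in Il10-EGFP- to 7 counts in each Il10-EGFP+ library, a log2 fold change of -1.59 (standard error 0.49, edgeR adjusted p = 0.04651). The median of this list was -0.12. Of the 19 genes, 6 were higher in both Il10-EGFP+ libraries and 6 were lower, beside 22.3% of all genes in each direction. The 4 other genes with the most counts were Junb, Mcl1, Ier5 and Srf. Junb, a component of AP-1, had 215 and 214 counts against 166 and 124 (log2 fold change -0.46, edgeR adjusted p = 0.1211). Mcl1, a survival factor, had 154 and 145 against 133 and 148 (0.01, edgeR adjusted p = 0.9828). Ier5, an immediate early gene, had 146 and 146 against 99 and 121 (-0.31, edgeR adjusted p = 0.4282), and Srf, which encodes serum response factor, had 71 and 77 against 61 and 60 (-0.19, edgeR adjusted p = 0.7836). The Junb value varied with the libraries used, from -0.76 without Il10-EGFP+ replicate 1 (edgeR adjusted p = 0.02141) to -0.20 without Il10-EGFP+ replicate 2 (edgeR adjusted p = 0.7642). Under a block for the replicate number, edgeR called Junb (adjusted p = 0.03879) and DESeq2 did not (adjusted p = 0.8387).

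The 5 calls depended on the tool, and some were lost in fits that left out a library and so kept 1 library in that group. DESeq2 called none of the pathway genes. Myc was also missed by limma, with an adjusted p of 0.06725 by voom and of 0.05307 on the rlog values. Without Il10-EGFP- replicate 2 none of the 5 passed, with edgeR adjusted p-values of 0.09266 for Rasa3, 0.08784 for Dok2, 0.1221 for Ptpn7, 0.05194 for Dgka and 0.06558 for Myc. Rasa3 passed without each of the other 3 libraries. Ptpn7 also missed without Il10-EGFP+ replicate 2 (adjusted p = 0.153, edgeR), and Dgka without Il10-EGFP- replicate 1 (0.05712) and Il10-EGFP+ replicate 1 (0.06979). Dok2 (0.07443 to 0.1148) and Myc (0.06558 to 0.2921) missed whichever library was left out. The direction of each of the 5 was kept throughout. With 1 library left out, log2 fold changes ran from 0.84 to 1.34 for Rasa3, from 1.01 to 1.11 for Dok2 and from 0.65 to 0.92 for Ptpn7. They ran from 0.60 to 0.68 for Dgka and from -1.77 to -1.38 for Myc.

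**Figure D4:**
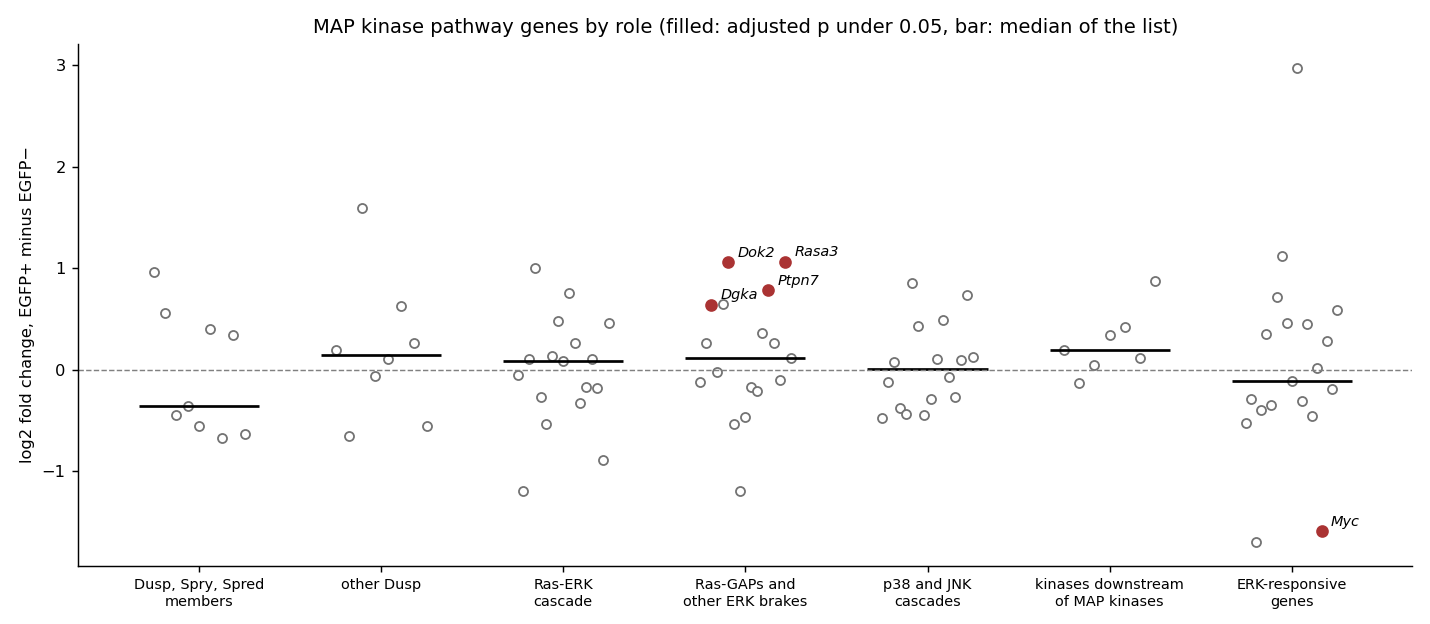
Log2 fold change, Il10-EGFP+ minus Il10-EGFP-, of each tested gene by list, with the median of each list as a bar and genes past an adjusted p of 0.05 (edgeR) filled and named. The Dusp, Spry and Spred members run from -0.68 to 0.96 with none filled, and the filled genes are Dgka, Dok2, Ptpn7 and Rasa3 above 0 and Myc below it.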

How the data were processed

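Messenger RNA of 4 libraries of sorted CD4+ T cells was measured. The authors deposited whole-number counts of reads per Ensembl gene, which the submitters' processing notes credit to STAR 2.5.2a and HTSeq 0.6.0 on GRCm38. They also deposited rlog values, made with DESeq2 and expressed as log2. Which annotation release and strand option were used is not given in the sources used here. The methods state that molecular identifiers served to assess duplicates and to remove bias from amplification. Whether the deposited counts were made after that step is not said. Labels and methods name different RNA kits. A further replicate pair, which the methods describe as removed, was not analysed here.

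A gene entered the test with 10 or more counts summed over all 4 libraries. The test was that of edgeR 4.0.16 (TMM factors, quasi-likelihood test, default settings) in R 4.3.3, with Benjamini-Hochberg adjustment over all genes tested and a threshold of 0.05. Standard errors and 95% intervals derive from the F statistic of each gene. Alternatives used DESeq2 1.42.0, limma 3.58.1 (voom, and trend on the deposited rlog values), other filters and scalings, a replicate term and the omission of each library. CPM were computed here from the deposited counts. A tested member with a mean under 10 counts was called too low to judge, and a count of 0 was given a limit of 3 counts. Symbols matched 47224 of 47643 identifiers, and coordinates came from GENCODE M21. The fits were tested on simulated data. Replicates of a group differed beyond counting noise (chi-square per gene 2.15 and 1.97).

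The members and lists were chosen with earlier results of these data known. Named genes were the 10 members, Il10, every pathway gene past the threshold and others drawn from the 4 of each list with the highest mean counts. Also named were some cell type markers, the other Spry and Spred genes, and genes that overlap Dusp1 or Dgka. No sample column was left unused.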

Additional observations from a re-analysis of the deposited data

How the results depend on the processing

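No member was called under any of the alternatives, and 133 of 136 alternative log2 fold changes of members kept their direction. The 3 that did not came from leaving out a library: Dusp4 went from -0.36 to 0.15 without Il10-EGFP- replicate 1 and to 0.04 without Il10-EGFP+ replicate 1, and Spred1 went from -0.68 to 0.10 without Il10-EGFP- replicate 1. With 1 library left out, Dusp4 ran from -0.97 to 0.15, Spred1 from -1.24 to 0.10 and Dusp11, of the pathway lists, from -0.036 (without Il10-EGFP+ replicate 1) to 0.39. Mcl1, at 0.013, was at -0.013 with library size as the sole scaling, and ran from -0.00062 (without Il10-EGFP- replicate 1) to 0.022 with 1 library left out. The smallest adjusted p of a member under any alternative was 0.1153 (Dusp5, without Il10-EGFP- replicate 2, edgeR). Over all genes 393 were called, 112 with DESeq2, 177 at an adjusted p under 0.01, and 212 to 272 with 1 library left out, where fewer samples entered the fit. Of the pathway genes 5 were called, 0 with DESeq2, 2 at an adjusted p under 0.01, and 0 to 3 with 1 library left out. DESeq2 gave 4284 of the 9608 genes no adjusted p. Otherwise the cause of the differences between tools was not tested.

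Deviations of libraries that share a replicate number had a correlation of 0.0145 over 6781 genes, and the main test did not pair the libraries. Such a low correlation does not show that they were unpaired. The methods speak of a replicate pair, and the supplement compared FoxP3 after such a sort by a paired t test. The labels do not say whether libraries with the same number came from the same mouse. With the replicate number as a block, edgeR called 560 genes, 0 members and 6 pathway genes, with Junb among them (adjusted p = 0.03879), and DESeq2 called 39, 0 and 0. No scaling moved the median of all genes by as much as 0.1 on the log2 scale.

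Depth limits the low members most: the mean counts of Dusp4, Dusp10 and Spry1 were 7.75, 7.75 and 6 per library, and Spry2 had 1 count in all.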
